A study of Mus musculus with 13 samples.

Results

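A set of 8 components and targets of the canonical Wnt pathway was followed through matched open chromatin and mRNA data of mouse embryonic stem cells: Ctnnb1, Tcf7l1, Tcf7, Lef1, Apc, Gsk3b, Axin2 and Sp5. They were taken by gene symbol from the count table, which held all 8 among 24470 genes. The cells were E14, an embryonic stem cell line of 129/Ola background, grown in serum with leukemia inhibitory factor and the labels name no treatment or genetic change in any group. In the low-input protocol cells were permeabilised, Tn5 transposase cut open DNA, and mRNA was then captured on oligo-dT beads from the same lysate. Experiment 1 supplied 10000 and 20000 cells and experiment 2, on another day, supplied 5000, 10000 and 20000 cells, which gave 5 mRNA and 5 ATAC libraries. The benchmark was Omni-ATAC, a published ATAC protocol for nuclei, with 5000, 10000 and 50000 cells, 1 library each.

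In the canonical pathway, beta-catenin is marked for destruction in the cytoplasm by a complex of Axin, Apc, Gsk3 and casein kinase 1. A Wnt ligand bound to a Frizzled receptor and Lrp5 or Lrp6 stops that destruction, and beta-catenin then enters the nucleus and binds TCF and LEF proteins at their target genes. In embryonic stem cells Tcf7l1 is the TCF best known as a repressor of pluripotency genes, and inhibition of Gsk3 is used to hold cells in the naive state.

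The starting point was sequence at the gene starts, because one target carried the TCF recognition letters next to its start. RefSeq promoter windows (GRCm38.p6, 250 bases before to 50 after a start) were matched by symbol for 7 of the 8 genes. The letters CTTTGAT, the core that TCF and LEF proteins bind, were searched on both strands. Of all 32851 windows, 3.73% held them. The 7 genes have 12 windows, since some have several starts, and 1 of the 12 had a match, that of Sp5, on the plus strand, with its first base at position -104 relative to the start. The 250 bases before the start are shown 5′ to 3′ for Sp5 (chr2:70474673-70474922, plus strand), with the match in capitals. Beside it are Gsk3b (chr16:38088751-38089000, plus strand), which had a peak at its start in every ATAC list, Axin2 (chr11:108920099-108920348, plus strand), and Ctnnb1 (chr9:120933150-120933399, plus strand), which had a peak there in 1 list.
Sp5: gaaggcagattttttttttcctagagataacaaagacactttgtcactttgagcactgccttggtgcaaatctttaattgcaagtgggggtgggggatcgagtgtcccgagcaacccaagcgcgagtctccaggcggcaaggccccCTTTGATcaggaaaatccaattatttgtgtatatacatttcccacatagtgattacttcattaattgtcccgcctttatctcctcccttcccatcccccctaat
Gsk3b: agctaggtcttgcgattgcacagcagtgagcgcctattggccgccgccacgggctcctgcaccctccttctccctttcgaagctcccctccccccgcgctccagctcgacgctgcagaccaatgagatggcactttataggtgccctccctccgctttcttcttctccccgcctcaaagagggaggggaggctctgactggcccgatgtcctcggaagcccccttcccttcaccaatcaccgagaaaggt
Axin2: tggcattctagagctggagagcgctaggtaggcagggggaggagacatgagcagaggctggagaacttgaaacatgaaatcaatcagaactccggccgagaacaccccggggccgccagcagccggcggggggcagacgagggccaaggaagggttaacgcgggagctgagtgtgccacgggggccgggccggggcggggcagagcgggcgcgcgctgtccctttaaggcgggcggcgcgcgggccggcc
Ctnnb1: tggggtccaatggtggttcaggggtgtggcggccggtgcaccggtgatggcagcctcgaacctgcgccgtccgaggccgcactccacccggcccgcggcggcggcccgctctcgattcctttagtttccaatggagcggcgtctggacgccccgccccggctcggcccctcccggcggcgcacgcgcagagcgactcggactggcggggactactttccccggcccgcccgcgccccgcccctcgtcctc

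The windows at the gene starts of the count table differed in base composition. The Ctnnb1 window had 75.3% G and C and 46 CpG dinucleotides, more CpG than 98.4% of all windows. The Axin2 window had 70.0% and 31 CpG, and the Gsk3b window 63.0% and 21 CpG. The Sp5 window had 45.0% and 6 CpG, against medians of 52.7% and 7 over all windows. The letters CCAAT, searched on both strands after the sequences had been seen, occurred 4 times in the Gsk3b window, and 1.06% of windows held at least as many. They occurred 2 times in the Ctnnb1 window shown, where 11.7% of windows held at least as many, and 0 times in the window of its other RefSeq start. They occurred 1 time each for Axin2 and Sp5, where 37.4% of windows held at least as many. These matches are letters in the windows, not measured binding.

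The mRNA libraries held 13727122 to 20426252 counts. Values are given as CPM, a count scaled to its library total. In such bulk libraries fewer cells that express a gene and less RNA per cell cannot be told apart. No transcript lengths were used here, so CPM values of different genes do not order their transcript levels. The stem cell identity of the libraries was checked with 6 markers (Pou5f1, Sox2, Nanog, Zfp42, Esrrb and Klf4), whose summed level was 1009 to 1244 CPM. By edgeR 2 of the 6 were called higher in experiment 2, as were 5.75% of all genes tested. Zfp42 lies on chromosome 8, where the median log2 fold change of 409 genes was 0.46 toward experiment 2. Mesendoderm markers (T, Mixl1, Eomes, Gsc, Foxa2 and Cer1) summed to 1.02 and 2.14 CPM in experiment 1 with 10000 and 20000 cells. In experiment 2 they summed to 1.25, 3.87 and 3.48 CPM with 5000, 10000 and 20000 cells. Eomes made up 68.3% and 60.6% of the sums from 10000 and 20000 cells there, while Gsc and Foxa2 had lower means than in experiment 1. Of the 6, 1 was tested and 0 were called. Primitive endoderm markers (Gata6, Gata4, Sox17, Sox7, Dab2 and Pdgfra) summed to 15.1 and 11.4 CPM in experiment 1 and to 2.45 to 2.74 CPM in experiment 2. By edgeR 2 of the 4 tested were called lower in experiment 2, as were 6.76% of all genes tested. Fibroblast markers summed to 33.3 and 35.7 CPM in experiment 1 and 8.57 to 9.90 CPM in experiment 2. Most of that was Thy1, and without it the sums were 0.119 to 4.08 CPM, with Col3a1 and Lum at 0 in every library.

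Ctnnb1 (gene ID 12387, mm10 chromosome 9, 120933400 to 120960507, plus strand) encodes beta-catenin, the transducer of the pathway and also a partner of cadherins at cell junctions. It had 178 and 179 CPM in the experiment 1 libraries from 10000 and 20000 cells. In experiment 2 it had 172, 192 and 191 CPM with 5000, 10000 and 20000 cells. The highest library was 1.11 times the lowest, and the experiments overlapped. Its SD over the 5 libraries was 0.07 on the log2(CPM + 1) scale. Of 1148 genes with a mean within a factor of 2 of its own, 4.97% had a smaller SD.

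Tcf7l1, Tcf7 and Lef1 are DNA-binding partners of beta-catenin. The related Tcf7l2, outside the 8 genes, had 1.97 to 3.62 CPM and was not called between experiments. Tcf7l1 (gene ID 21415, mm10 chromosome 6, 72626371 to 72789045, minus strand) had 23.1 and 21.9 CPM in experiment 1 with 10000 and 20000 cells, and 21.0, 20.9 and 26.6 CPM in experiment 2 with 5000, 10000 and 20000 cells. The library of experiment 2 from 20000 cells was the highest and the other 4 lay close together. Tcf7 (gene ID 21414, mm10 chromosome 11, 52252283 to 52283014, minus strand) had 22.1 and 14.7 CPM in experiment 1 and 13.7, 11.3 and 14.2 CPM in experiment 2. Its experiments did not overlap, but the gap between 14.7 and 14.2 CPM was narrow, and 41.5% of the genes tested likewise had experiments that did not overlap. The experiment 1 library from 10000 cells stood above the rest.

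Lef1 (gene ID 16842, mm10 chromosome 3, 131110297 to 131224357, plus strand) was near the limit of detection. It had 4 and 7 counts in experiment 1 (0.291 and 0.468 CPM) and 0 counts in all 3 libraries of experiment 2. A count of 0 allows up to 3 counts, or 0.147 to 0.193 CPM in those libraries. Over the libraries from 10000 and 20000 cells the mean level in experiment 1 was at least 1.96-fold higher, against the higher of the 2 experiment 2 floors (3 counts per library). The 11 counts of experiment 1 enter this bound without their own counting error.

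Apc and Gsk3b belong to the destruction complex, Apc as the large scaffold and Gsk3b as the kinase that phosphorylates beta-catenin. Gsk3b (gene ID 56637, mm10 chromosome 16, 38089001 to 38246079, plus strand) had 11.1 and 12.6 CPM in experiment 1 and 11.7, 9.74 and 12.3 CPM in experiment 2. These values overlapped between experiments, and the highest was 1.29 times the lowest. Apc (gene ID 11789, mm10 chromosome 18, 34220984 to 34322190, plus strand) had 14.3 and 9.37 CPM in experiment 1 with 10000 and 20000 cells, and 11.3, 18.2 and 9.40 CPM in experiment 2 with 5000, 10000 and 20000 cells. The libraries from 10000 cells were the highest in both experiments and those from 20000 cells the lowest, with the library from 5000 cells in between. The SD of Apc over the 5 libraries was 0.38 on the log2(CPM + 1) scale, and 82.9% of 2398 genes of like mean had a smaller one.

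Axin2 and Sp5 are direct targets that Wnt signals raise in many tissues, and Axin2 also feeds back as a scaffold of the destruction complex. Axin2 (gene ID 12006, mm10 chromosome 11, 108920349 to 108950783, plus strand) had 12 and 32 counts in experiment 1 (0.874 and 2.14 CPM) and 39, 31 and 25 counts in experiment 2 (2.33, 2.00 and 1.22 CPM). The experiments overlapped. Sp5 (gene ID 64406, mm10 chromosome 2, 70474923 to 70477726, plus strand), a zinc finger transcription factor, had 0 counts in both experiment 1 libraries, which allows up to 0.219 and 0.201 CPM. In experiment 2 it had 16, 10 and 24 counts with 5000, 10000 and 20000 cells (0.955, 0.645 and 1.17 CPM). All 3 experiment 2 libraries lay above the floors of experiment 1. Over the libraries from 10000 and 20000 cells, the mean level in experiment 2 was 4.16 times the higher of the 2 experiment 1 floors (3 counts per library). The floor covers counting error only, and the 34 counts of experiment 2 enter without theirs.

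**Figure D1:**
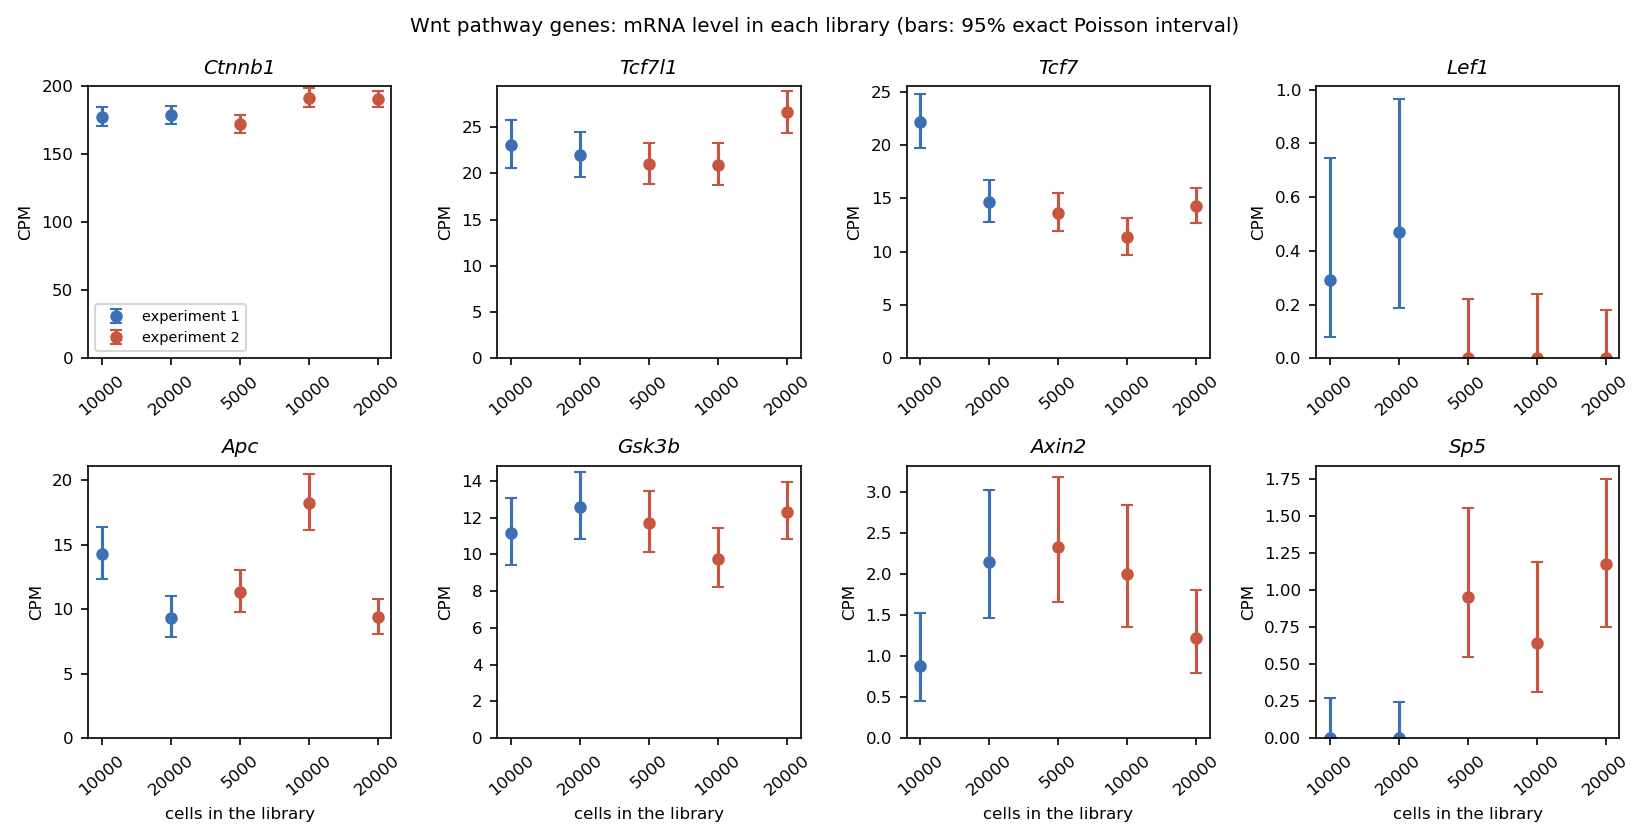
Level of the 8 genes in CPM (vertical axis, from 0) in the 5 mRNA libraries, ordered by experiment and number of cells, blue for experiment 1 and red for experiment 2, with 95% exact Poisson intervals that cover counting error only. Ctnnb1 is nearly level at 172 to 192 CPM, Apc is highest in both libraries from 10000 cells, and Sp5 has counts only in the 3 experiment 2 libraries.

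The levels were then compared between the experiments, which were done on different days. Each experiment stands for 1 day, so the p-values and intervals below measure spread between libraries within an experiment, not between days. Experiment 2 was compared with experiment 1 over the libraries from 10000 and 20000 cells with edgeR's quasi-likelihood test. Of the 8 genes, 6 passed the filter on low counts, and 0 of the 6 had an adjusted p under 0.05 (1 had an unadjusted p under 0.05, and DESeq2 called 0). Among all 12523 genes tested, 12.5% were called. The median log2 fold change of the 6 was 0.08, against 0.00 over all genes tested. For Ctnnb1 the log2 fold change was 0.10 (95% interval -0.14 to 0.35), and for Tcf7l1 0.08 (-0.31 to 0.46). For Gsk3b the value was -0.10 (-0.60 to 0.39), and for Apc 0.22 (-0.35 to 0.80). These 4 intervals lie within a factor of 2 of no change. For Axin2 it was 0.09 (-1.37 to 1.55), an interval that admits more than a doubling either way.

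Tcf7 came closest among the genes tested, at -0.52 ± 0.23 on the log2 scale (SE, edgeR adjusted p = 0.147, unadjusted 0.0325). Its value depended on single libraries. Without the experiment 1 library from 20000 cells it was -0.77 (edgeR adjusted p = 0.0218), and without the experiment 1 library from 10000 cells, the highest, it was -0.19.

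Sp5 and Lef1 did not pass the filter. When no filter was applied, Sp5 was called higher in experiment 2 (edgeR adjusted p = 0.0422). Wherever a filter let Sp5 in, it passed only through the experiment 2 libraries, where it is high, so those fits are not used here. Lef1, without a filter, had an edgeR adjusted p of 0.435. Fitted fold changes for these 2 genes depend on the prior count, so the ratios to the floors given above stand in their place.

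Cell number was compared in the same 4 libraries to ask how input affects the values. Of the 6 genes tested, 0 were called at 20000 against 10000 cells, and 0% of all 12523 genes were called (101 had an unadjusted p under 0.05, of the 6 only Apc). This fit left out the pairing by experiment, so differences between experiments entered its error. Its biological coefficient of variation, a measure of spread between libraries, was 32.0%, against 17.1% in the comparison of experiments. The lack of calls therefore does not show equal levels. Apc had a log2 fold change of -0.81 ± 0.27 (SE, edgeR adjusted p = 0.999, unadjusted 0.0222). It was lower at 20000 cells in both experiments. With the experiment as a block, the value was -0.81 (edgeR adjusted p = 0.447, and 0.953 to 1.00 under the other alternatives), in a fit that called 0.0319% of all genes. The next values are from the fit without the block. For Ctnnb1 the value was -0.02 (95% interval -0.40 to 0.37), for Tcf7l1 0.13 (-0.42 to 0.67) and for Gsk3b 0.24 (-0.40 to 0.88). The library from 5000 cells has no replicate. Against the average of the other 2 experiment 2 libraries, 0 of the 6 genes averaging 1 CPM or more differed there by 2-fold or more (on log2(CPM + 1) values), and 2.88% of all genes at that level did. Lef1 and Sp5 lie below it. Axin2 was 0.37 higher on that scale.

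**Figure D2:**
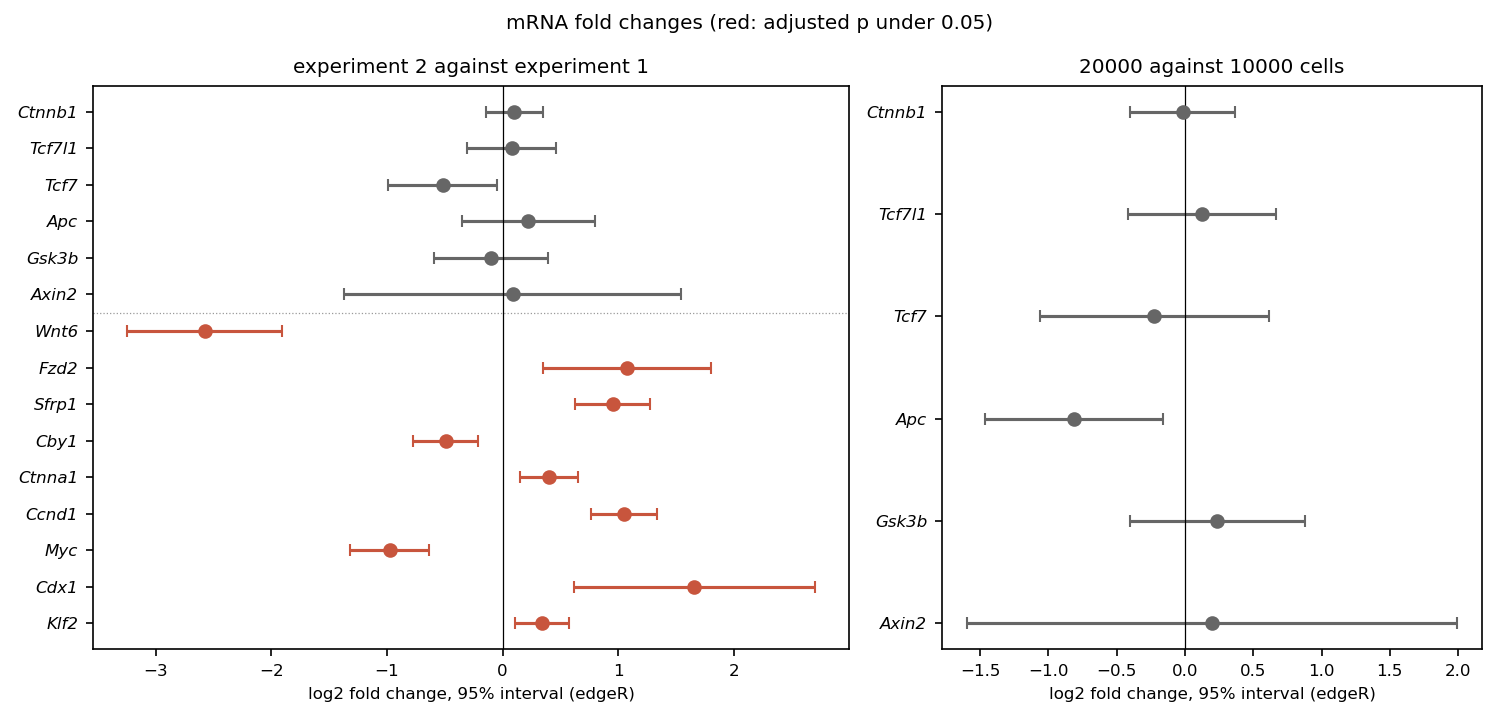
Log2 fold changes with 95% intervals (horizontal axis) from edgeR for experiment 2 against experiment 1 (left) and for 20000 against 10000 cells (right), over 4 libraries, with red for an adjusted p under 0.05. The 6 genes tested, above the dotted line, are grey in both comparisons, while the 9 other pathway genes below it were called between experiments, from Wnt6 at -2.58 to Cdx1 at 1.66.

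Genes with the most similar profile over the 5 libraries were found by the root mean square difference of centred log2(CPM + 1) values among the 6485 genes averaging 10 CPM or more. For Ctnnb1 they were Commd7 (0.0121) and Eif3e (0.0169), for Tcf7l1 Uqcrc1 (0.0168) and Lztr1 (0.0279), and for Gsk3b Dcdc2b (0.0206) and Scnm1 (0.0238). For Tcf7 they were Tbcc (0.0548) and Wsb2 (0.0595). For Apc they were Sp3 (0.119) and Ep300 (0.123), both also highest in the libraries from 10000 cells. Such matches over 5 libraries are a description only. None of these genes of the set was among the nearest profiles of another. So few profiles were kept for each, out of 6485, that this does not show whether they vary together.

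The wider pathway was read from lists of 99 further genes, of which 63 were tested. Between experiments 6 were called higher and 3 lower, 14.3% of those tested, which is near the 12.5% called over all genes (5.75% higher and 6.76% lower). At 20000 against 10000 cells, without the block, 0 were called (1 had an unadjusted p under 0.05 by edgeR, and DESeq2 called 0). Their median log2 fold change between experiments was 0.04. The count of calls changed when single libraries were left out, as did the count over all genes.

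Of the 19 Wnt ligands, 17 had a mean under 1 CPM and 4 were tested. Wnt6 fell, from 17.0 and 10.4 CPM in experiment 1 to 2.00 and 2.55 CPM in experiment 2 with 10000 and 20000 cells (log2 fold change -2.58 ± 0.32 SE, edgeR adjusted p = 4.96e-06), with 1.07 CPM in the library from 5000 cells. The primitive endoderm markers, also higher in experiment 1, moved with it, and their part in the result was not tested. Wnt11, the other ligand with a mean above 1 CPM, had 2.04 and 1.81 CPM in experiment 1 and 0.0597, 1.61 and 3.08 CPM in experiment 2. Porcn and Wls, which acylate and carry Wnt ligands, were not called. Porcn had 14.1 and 4.42 CPM in experiment 1 and 6.62, 10.7 and 7.98 CPM in experiment 2.

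Of the 12 receptors, 9 were tested and 1 was called. The Frizzled receptor Fzd2 rose from 2.84 and 3.95 CPM to 6.26 and 8.08 CPM (log2 fold change 1.08 ± 0.35 SE, edgeR adjusted p = 0.0456), with 7.04 CPM from 5000 cells. The call was lost with DESeq2 (adjusted p = 0.0914), with scaling by library size alone (edgeR adjusted p = 0.0519), and without the experiment 1 library from 10000 cells (edgeR adjusted p = 0.143) or either experiment 2 library (0.110 without that from 10000 cells, 0.322 without that from 20000). Fzd5 had 13.6 ± 2.71 CPM (SD, n = 5) and was not called. In the R-spondin axis, which sets receptor turnover, 3 of 9 genes were tested and 0 called, with Lgr4 at 5.97 to 8.53 CPM and Znrf3, a ligase that removes Frizzled receptors, at 3.52 to 6.05 CPM.

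Of the 14 antagonists, 8 were tested and 1 was called. Sfrp1, a secreted protein that binds Wnt ligands, rose from 46.6 and 34.5 CPM to 81.5 and 75.3 CPM (log2 fold change 0.95 ± 0.16 SE, edgeR adjusted p = 0.000157). The library from 5000 cells had 67.2 CPM. Sfrp1 lies on chromosome 8, where the median log2 fold change of 409 genes was 0.46 in the same direction. Sfrp2 had 13.9 to 25.9 CPM and was not called.

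Inside the cell, 13 of 14 cytoplasmic transducers were tested and 0 called. Among them the casein kinases Csnk1a1 and Csnk1e had 118 to 153 CPM and 61.3 to 101 CPM. Of 11 nuclear cofactors 9 were tested and 1 called. Cby1, which binds beta-catenin and opposes it, fell from 83.8 and 89.3 CPM to 56.8 and 66.3 CPM (log2 fold change -0.49 ± 0.14 SE, edgeR adjusted p = 0.0182). The edgeR adjusted p was 0.0502 without the experiment 1 library from 10000 cells, 0.201 without the experiment 2 library from 10000 cells and 0.108 without the experiment 1 library from 20000 cells. The corepressor Tle4 had 31.3 to 37.7 CPM and was not called.

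All 4 adhesion partners of beta-catenin were tested and 1 was called. Ctnna1, alpha-catenin, rose from 118 and 117 CPM to 152 and 159 CPM (log2 fold change 0.40 ± 0.12 SE, edgeR adjusted p = 0.0303). The library from 5000 cells had 123 CPM, nearer to experiment 1, and with it added the edgeR adjusted p was 0.0832. Leaving out any 1 library ended the call as well, at edgeR adjusted p of 0.0663 (experiment 2, 10000 cells), 0.108 (experiment 1, 20000 cells), 0.124 (experiment 2, 20000 cells) and 0.172 (experiment 1, 10000 cells). Jup, plakoglobin, had 52.5 to 64.0 CPM and was not called.

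Among 9 target genes of beta-catenin and TCF outside the 8, 6 were tested, 2 rose and 1 fell, where 5.75% of all genes tested were called higher and 6.76% lower. Ccnd1, cyclin D1, rose from 48.7 and 59.0 CPM to 106 and 117 CPM (log2 fold change 1.05 ± 0.14 SE, edgeR adjusted p = 9.49e-06), with 96.3 CPM from 5000 cells. Myc fell from 55.2 and 44.6 CPM to 26.7 and 23.9 CPM (-0.98 ± 0.17 SE, edgeR adjusted p = 0.000258), with 25.0 CPM from 5000 cells. Myc and Cby1 lie on chromosome 15, where the median of 310 genes was -0.25. Cdx1, a homeobox gene, rose from 0.728 and 2.41 CPM to 4.13 and 5.87 CPM (1.66 ± 0.50 SE, edgeR adjusted p = 0.0306). The library from 5000 cells had 1.91 CPM, within the range of experiment 1. The summed mesendoderm markers were also higher in experiment 2 with 10000 and 20000 cells, at 3.87 and 3.48 CPM. They summed to 1.02 and 2.14 CPM in experiment 1 and to 1.25 CPM from 5000 cells. Eomes alone made up 68.3% and 60.6% of the experiment 2 sums from 10000 and 20000 cells. Gsc and Foxa2 had lower means in those libraries than in experiment 1. The part of these markers in the result was not tested. With the library from 5000 cells added the edgeR adjusted p of Cdx1 was 0.125, and with DESeq2 it was 0.0591. The call was also lost without the experiment 1 library from 10000 cells (edgeR adjusted p = 0.142) and without the experiment 2 library from 10000 cells (0.0852) or from 20000 cells (0.296).

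All 5 genes listed as repressed by Tcf7l1 in stem cells were tested and 1 was called. Klf2, a naive pluripotency factor, rose from 405 and 402 CPM to 476 and 544 CPM (log2 fold change 0.34 ± 0.11 SE, edgeR adjusted p = 0.0497). It lies on chromosome 8, whose median was 0.46. The call was lost with scaling by library size alone (edgeR adjusted p = 0.0608) and with cell number as a block (0.0560), and without the experiment 1 library from 10000 cells (0.230), the experiment 1 library from 20000 cells (0.159) or the experiment 2 library from 20000 cells (0.238). Nanog had 207 to 251 CPM and was not called. The 8 genes themselves lie on chromosomes 2, 3, 6, 9, 11, 16 and 18, whose medians were between -0.03 and 0.07.

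ATAC peaks were read at the same genes from the 8 lists, which held 9097 to 95457 intervals without heights. A promoter peak was an interval that reached within 1000 bp of the gene start in the count table. The low-input lists of experiment 2 from 5000 cells and of experiment 1 from 10000 cells held one for 2 of the 8 genes each, where each list held one for 31.1% of all genes. The experiment 2 list from 10000 cells held one for 5 genes (40.5% of all genes), the experiment 1 list from 20000 cells for 4 (37.4%), and the experiment 2 list from 20000 cells for 5 (50.3%). The Omni-ATAC lists held one for 2 genes with 5000 cells (18.6%), for 4 with 10000 (41.5%) and for all 8 with 50000 (61.1%). Gsk3b, Axin2, Apc and Tcf7l1 had a promoter peak in at least 5 of 8 lists, as did 36.5% of all genes and 71.7% of the 6485 genes averaging 10 CPM or more.

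Gsk3b was open in 8 of 8 lists. Its interval was 525 to 834 bp wide in the low-input lists and spanned the start in each. The Omni-ATAC list from 5000 cells had intervals of 90 and 96 bp on either side of the start, and the list from 50000 cells a single one of 1260 bp. The gene BC031361 also starts within 1000 bp of this region, so the peak cannot be assigned to either start alone. Axin2 had a promoter peak in 7 of 8 lists, missing only in Omni-ATAC from 5000 cells, the shortest list. In the low-input lists it lay between 5 and 524 bp into the gene. In the low-input lists of experiment 2 from 5000 cells and of experiment 1 from 10000 cells it spanned 9 bp, the minimum in these lists, and in the experiment 2 list from 20000 cells it was 520 bp wide.

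Apc had a promoter peak in 6 of 8 lists, in the low-input lists between positions -201 and -20 relative to the start. The low-input lists of experiment 2 from 5000 cells and of experiment 1 from 10000 cells lacked it. With peaks of at least 50 bp only, 3 lists held one. Gm10548 starts within 1000 bp of the same region. Tcf7l1 had one in 5 of 8 lists, and each covered positions -646 to -542, while within 500 bp of the start 3 lists held a peak. Tcf7 had one in 3 lists, namely the experiment 2 lists from 10000 and 20000 cells and Omni-ATAC from 50000 cells. All 3 lists had an interval between positions -471 and -306, and Omni-ATAC had another between 181 and 469.

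Ctnnb1, Lef1 and Sp5 had a promoter peak in 1 list, Omni-ATAC from 50000 cells, the longest. At Ctnnb1 the main interval was 297 bp wide, from position -171 to 125. Of those 6485 genes 95.7% had a promoter peak in that list, and 8.39% had one in at most 1 of the 8 lists, as Ctnnb1 did. Ctnnb1 had 172 to 192 CPM in mRNA libraries whose matched ATAC lists held no interval at its start. Lef1, at 0 counts in experiment 2, showed the same count of lists, with an interval of 102 bp across its start. Over all 24470 genes, whatever their level, 46.4% had a promoter peak in at most 1 list, as Lef1 and Sp5 did. The depth of the ATAC libraries is unknown, and absence from a list does not show closed chromatin.

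**Figure D3:**
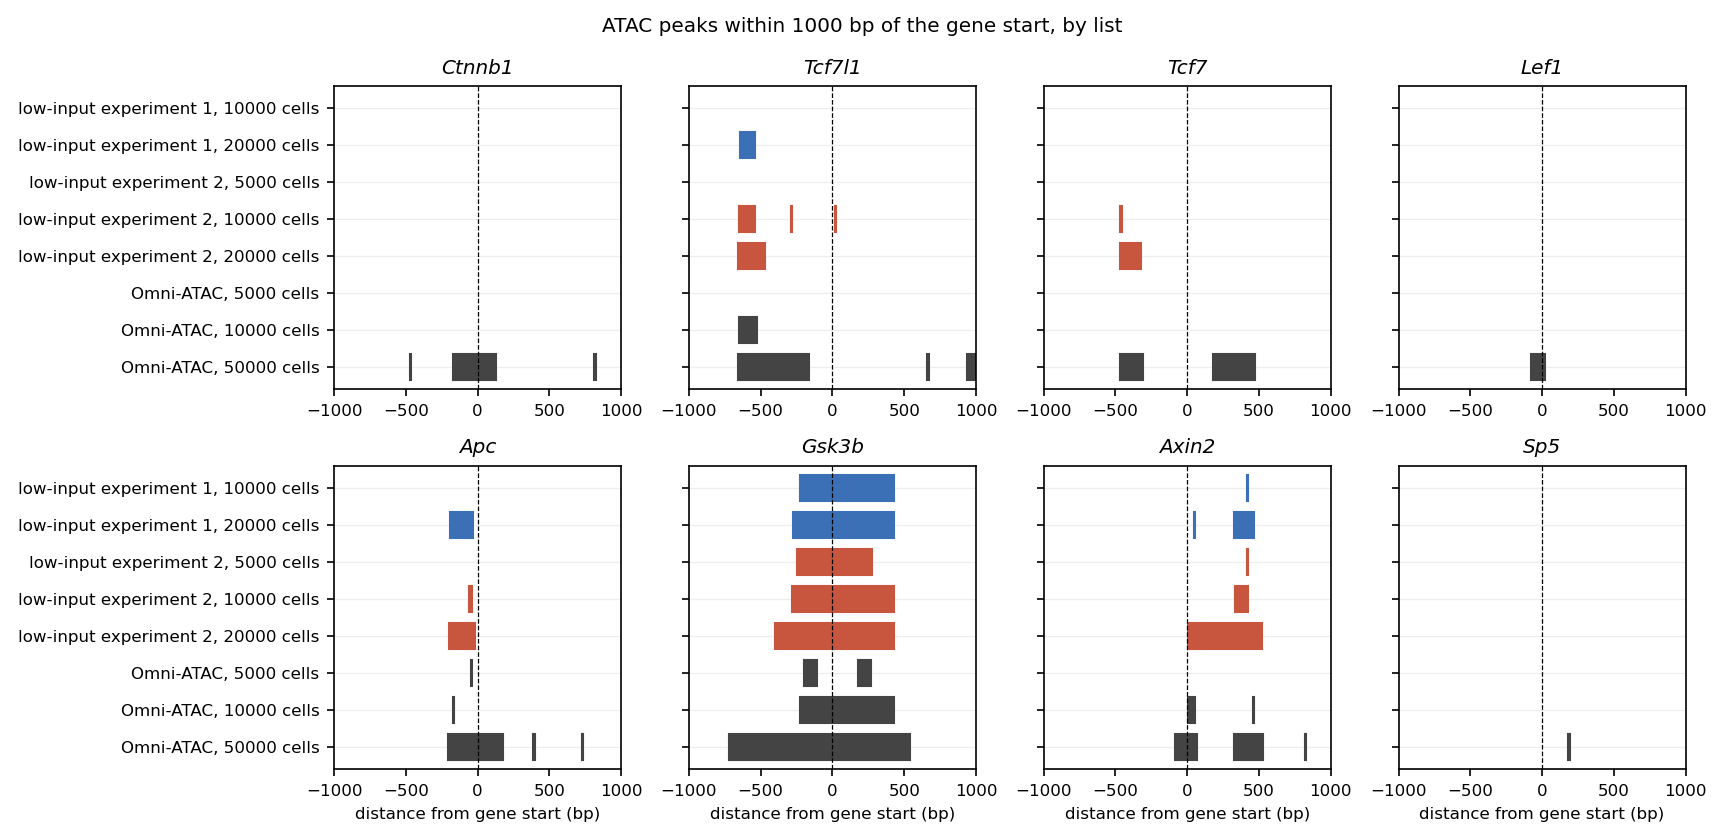
Intervals within 1000 bp of the gene start (horizontal axis in bp, negative before the start in the direction of transcription) for the 8 genes, with a row for each ATAC list, blue for low-input experiment 1, red for experiment 2 and dark grey for Omni-ATAC. Gsk3b has an interval in 8 of 8 rows, whereas Ctnnb1, Lef1 and Sp5 have one in the lowest row only, Omni-ATAC from 50000 cells.

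Around the genes, peaks were gathered inside the gene or within 50000 bp of its start, and intervals of the 8 lists that overlapped were merged into regions. The windows differ in length with the gene, so the numbers of regions were not ranked. Tcf7l1 had 35 regions in a window of 213 kb, of which 6 were in at least 5 lists. A region at chr6:72828791-72829147, at positions -40102 to -39746, was in 8 of 8 lists. A region 1273 to 1669 bp inside the gene and another 111109 to 111486 bp inside it were each in 7 lists, as was a region upstream at chr6:72794881-72795682 (positions -6637 to -5836), found in all 3 Omni-ATAC lists. Lef1 had 18 regions in 164 kb. One at chr3:131102272-131102660, at positions -8025 to -7637, was in 8 of 8 lists, 250 to 298 bp wide in 4 of the 5 low-input lists. Lef1, with 0 counts in experiment 2, had an open region upstream in all 3 experiment 2 lists. No other gene of the count table starts within 1000 bp of the Tcf7l1 or the Lef1 region.

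Ctnnb1 had 11 regions, 9 of them in the Omni-ATAC list from 50000 cells only. The most frequent, at chr9:120919156-120919519 at positions -14244 to -13881, was in 4 lists, namely both low-input lists from 20000 cells and Omni-ATAC from 10000 and 50000 cells. Tcf7 had 10 regions with 4 in 5 lists, among them one 28820 to 28912 bp inside the gene. For Gsk3b, Axin2 and Apc the promoter region was the most frequent, and the other regions were in at most 3 lists.

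At Sp5 the low-input lists divided by experiment. A region at chr2:70476239-70476727, 1316 to 1804 bp inside the gene, was in 5 lists. All 3 low-input lists of experiment 2 held it, and neither list of experiment 1 did. The experiment 2 lists held 18637, 29870 and 49508 intervals with 5000, 10000 and 20000 cells, and the experiment 1 lists 18877 and 27016 with 10000 and 20000 cells. The part of list length in this split was not tested. Each low-input interval was only 9 bp wide. Those from 5000 and 10000 cells lay at 1796 to 1804 bp from the start and that from 20000 cells at 1765 to 1773 bp. These do not overlap, and they form 1 region only through the interval of Omni-ATAC from 50000 cells, which spans both. That interval was 489 bp wide, the one of Omni-ATAC from 10000 cells 9 bp, and Omni-ATAC from 5000 cells had none. Of 54435 regions found in any low-input list, 2.02% were in all 3 lists of experiment 2 and in neither of experiment 1, and of the 6192 regions in exactly 3 low-input lists 17.8% were. The Sp5 mRNA counts of the matched libraries divided the same way, 0 and 0 against 16, 10 and 24. Experiments that do not overlap in mRNA were common, at 41.5% of the genes tested, a set that Sp5 is not in. Whether the peak and the mRNA are related was not tested, and the day cannot be told apart from the state of the culture.

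**Figure D4:**
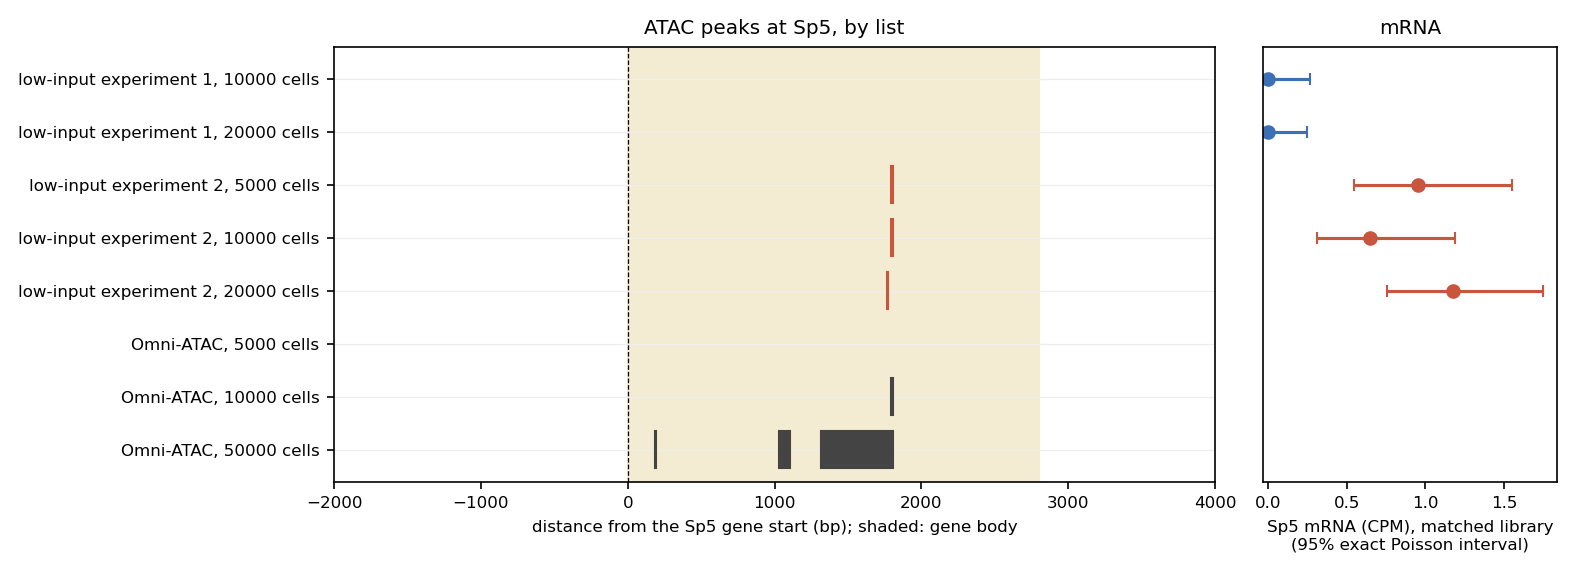
Left, ATAC intervals at Sp5 (horizontal axis, bp from the gene start, gene body shaded) with a row for each list, and right, Sp5 mRNA in CPM of the matched library with its 95% exact Poisson interval, blue for low-input experiment 1, red for experiment 2 and dark grey for Omni-ATAC. The 3 experiment 2 rows have an interval of 9 bp between 1765 and 1804 bp and 0.645 to 1.17 CPM, and the 2 experiment 1 rows have no interval and 0 CPM.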

How the data were processed

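The authors deposited whole-number counts per gene for the 5 mRNA libraries. The submitters' processing notes name build mm10, STAR 2.5, featureCounts of Subread 1.5.0-p1, Bowtie2 2.1.0 and MACS2 2.1.1. Annotation version, strand and multiply mapped reads are not given in the sources used here, so overlapping genes are uncertain. ATAC data were deposited as intervals, other than counts, with no height or score.

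CPM came from the deposited counts. Tests used edgeR 4.0.16 (TMM, filterByExpr, glmQLFit, glmQLFTest; R 4.3.3), adjusted by Benjamini-Hochberg over all genes, threshold 0.05, and were tested on simulated counts. SE is the log2 fold change over the square root of F, with 95% intervals from its t distribution. Libraries of an experiment share a day, so p-values carry no replication of days. The experiment number pairs libraries of different cell numbers, as the series' design text states. Deviations of same-numbered libraries correlated with r = 0.562 over 11575 genes. No pair of libraries agreed within sampling noise (chi-square per gene at least 10.7).

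Alternatives were RLE or library-size scaling, DESeq2 1.42.0, other filters, blocks, each library left out, and for peaks other distances, widths, overlaps and list lengths. Named pathway genes were up to 3 called and the 2 with the highest mean CPM in each list, a rule for naming that does not order transcript levels. The 8 genes, the lists and the marker sets were chosen with earlier results of these data known.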

Additional observations from a re-analysis of the deposited data

How the results depend on the processing

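Between experiments, 0 of the tested members were called with RLE or library-size scaling, DESeq2, a minimum of 10 CPM or a block. The count was 1 (Sp5) with no filter on low counts, 1 (Sp5) with the 5000-cell library added, where Sp5 passed the filter only through the libraries in which it is high, so that call supports no difference, and 0 to 1 with each library left out (Tcf7, without the experiment 1 library from 20000 cells). With each library left out, the genes called between experiments ranged from 803 to 1815 and the further pathway genes called from 5 to 11. A block on the experiment could not be fitted there, since it is the contrast. For 20000 against 10000 cells, 2 genes were called without a filter and 4 with the replicate block, against 0. The replicate block changed no call of the members. Log2 fold changes that turned sign when a library was left out ran, between experiments, from -0.094 to 0.25 for Tcf7l1, -0.32 to 0.64 for Apc, -0.27 to 0.063 for Gsk3b and -0.42 to 0.89 for Axin2. Between cell numbers they ran from -0.064 to 0.060 for Ctnnb1, -0.011 to 0.27 for Tcf7l1, -0.62 to 0.34 for Tcf7 and -0.27 to 0.93 for Axin2. Scaling by library size alone turned Ctnnb1 to 0.0025. These values passed no test. Of the 8 genes, 4 had a promoter peak in at least 5 of 8 lists, and 4 had one in most lists with each list left out. The number was 3 within 500 bp, 5 within 2500 bp, 3 with peaks of at least 50 bp, and 1 (Gsk3b) when each list was limited to its 9097 widest peaks. The cause was not tested. With a pseudocount of 0.1, chosen after seeing the data, 0 of the 6 members averaging 1 CPM or more again differed by 2-fold from 5000 cells.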
